A study of Mus musculus with 12 samples.

Results

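Interferon-stimulated genes are the genes that cells switch on when an interferon reaches its receptor. A set of 41 such genes of the mouse was followed here, chosen by gene symbol as commonly named members of this class, and all 41 were found among the 48034 genes of the deposited expression table. Each of the 41 also passed the filter on low values, a level of at least 1 FPKM in 3 or more libraries, where FPKM is fragments per kilobase of transcript scaled to the library's mapped fragments, with which 14044 genes were tested.

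The cells were subclone 53a of IMCD3, an epithelial line of the mouse kidney's inner medullary collecting duct. In this subclone, as known of the study, mifepristone induces a dominant-negative form of a transcription factor that acts in renal tubules, and all 4 groups carry that construct. The groups of 3 libraries (A, B and C) were vehicle, vehicle with 100 mM added NaCl, mifepristone, and mifepristone with 100 mM added NaCl, and all cells grew in low glucose medium with serum. The subclone is 1 clone, and no group received mifepristone without the construct, so the action of the mutant and that of mifepristone, itself a ligand of steroid receptors, cannot be told apart.

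The reads recovered from the deposited values summed to between 41940955 and 49270776 per library. Kif12, a kinesin gene known as a target of the factor, was at 15.1 to 15.4 FPKM with vehicle and 17.8 to 19.2 with vehicle and NaCl, against 0.980 to 1.03 with mifepristone and 0.806 to 1.06 with mifepristone and NaCl. Of 14 epithelial and tubule markers, 9 passed the filter, with a summed level of 813 to 1270.0 FPKM in every library. Single markers changed in opposite directions beneath this sum. Cdh16 had means of 188 FPKM with vehicle, 676 with vehicle and NaCl, 31.6 with mifepristone and 121 with mifepristone and NaCl. Krt8, in the same order of groups, had means of 171, 118, 286 and 210 FPKM. Among markers of principal cells of the collecting duct, Aqp2, Aqp3, Avpr2, Gata3 and Elf5 stayed below the filter, at no more than 0.764 FPKM. Scnn1a of the same list passed it. Its mean was 0.578 FPKM with vehicle, 0.405 with vehicle and NaCl, 2.08 with mifepristone and 1.11 with mifepristone and NaCl. By transcript length, vehicle A and mifepristone C stood apart from their groups. Spearman's rho between a gene's log2 deviation from its group mean and its exon length was -0.44 and -0.51 over 13904 genes, and -0.72 and -0.86 over the 41 genes, so short genes read high and long genes low in these libraries. It was 0.80 in mifepristone A and 0.78 in mifepristone B over the 41 genes. With mifepristone and NaCl, C stood apart too, at 0.635 against -0.43 in A and -0.193 in B. With vehicle and NaCl it was -0.391 in A, 0.344 in B and 0.05 in C.

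Type I interferons bind the receptor formed by Ifnar1 and Ifnar2, whose kinases Jak1 and Tyk2 phosphorylate transcription factors such as Stat2. Stat2 and Irf9 are parts of a complex that binds a promoter element called the interferon-stimulated response element. Type II interferon acts through another receptor, Jak1 and Jak2, and its target promoters hold the gamma-activated site. The induced proteins sense foreign RNA or DNA, degrade RNA, block translation or viral entry, and feed back on the pathway, and epithelial cells of the kidney respond to interferon as most cell types do.

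The promoter letters of 6 of the genes are printed because they show the elements that the class is known for, in genes that moved in opposite directions in these cells. Each is the 160 bases before the start that RefSeq annotates, from RefSeq on GRCm38.p6, read 5′ to 3′ on the gene's strand. Capitals mark every match to GAAA, any 2 bases and GAAA (GAAA-NN-GAAA), the core of the interferon-stimulated response element, or to TTCNNNGAA, the core of the gamma-activated site, on either strand. A match to the former on the other strand reads TTTC, any 2 bases and TTTC, and overlapping matches run together. Isg15 lies on the minus strand at chr4:156200819-156200978 and Oas1a on the minus strand at chr5:120907526-120907685. The others lie on the plus strand, Gbp2 at chr3:142620503-142620662, Irf1 at chr11:53769854-53770013, Ifit1 at chr19:34640729-34640888 and Ifit3 at chr19:34583369-34583528.
Isg15: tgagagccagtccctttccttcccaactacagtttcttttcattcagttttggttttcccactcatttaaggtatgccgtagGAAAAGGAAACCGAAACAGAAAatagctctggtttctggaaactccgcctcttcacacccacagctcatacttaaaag
Oas1a: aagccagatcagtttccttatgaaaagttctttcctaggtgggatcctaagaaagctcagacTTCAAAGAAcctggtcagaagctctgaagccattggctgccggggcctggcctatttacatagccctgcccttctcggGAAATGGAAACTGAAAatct
Gbp2: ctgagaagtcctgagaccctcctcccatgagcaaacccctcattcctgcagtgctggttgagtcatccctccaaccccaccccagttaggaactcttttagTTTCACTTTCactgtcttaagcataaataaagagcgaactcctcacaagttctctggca
Irf1: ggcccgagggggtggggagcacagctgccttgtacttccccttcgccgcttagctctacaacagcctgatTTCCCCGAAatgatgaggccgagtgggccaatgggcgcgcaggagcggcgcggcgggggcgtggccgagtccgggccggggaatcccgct
Ifit1: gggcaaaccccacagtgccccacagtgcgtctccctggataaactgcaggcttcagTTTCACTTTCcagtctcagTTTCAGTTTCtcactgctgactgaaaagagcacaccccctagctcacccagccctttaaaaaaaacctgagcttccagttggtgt
Ifit3: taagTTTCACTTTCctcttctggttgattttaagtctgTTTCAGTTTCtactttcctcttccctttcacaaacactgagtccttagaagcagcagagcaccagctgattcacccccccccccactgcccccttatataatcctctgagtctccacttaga

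Of the 41 genes, 30 matched an entry of the promoter table, which covers 250 bases before to 50 after a start. A match to GAAA-NN-GAAA stood in 15 of the 30 (50%), against 3.99% of 27025 genes with a promoter entry. A match to TTCNNNGAA stood in 9 of the 30 (30%), against 9.55% of all. The Isg15 promoter held 3 overlapping matches to GAAA-NN-GAAA, and those of Oas1a, Ifit1 and Ifit3 held 2 each. Ifit1 and Ifit3 lie on chromosome 19 in the same cluster, and both carry TTTCACTTTC and TTTCAGTTTC, yet Ifit1 rose and Ifit3 fell with mifepristone. A match is a description of the letters and does not show binding.

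With mifepristone and no NaCl, 37 of the 41 genes rose and 1, Ifit3, fell, by limma's moderated test on log2(FPKM + 0.5) with Benjamini-Hochberg adjusted p under 0.05 over all 14044 genes tested, which is what "called" means throughout. Over all genes tested, 28.3% were called higher and 31.5% lower. The median log2 fold change of the 41 genes was 0.74, with quartiles of 0.57 and 1.06, against -0.01 for all genes tested. A rise of at least 2-fold was called for 11 of them, against 4.09% of all genes. Ifi27, Dtx3l and Samd9l were not called, at log2 fold changes between -0.18 and 0.19, and Samd9l was called lower (-0.28) without mifepristone A. In 37 genes every mifepristone library lay above every vehicle library (28.5% of all genes), and in 1 every one lay below (30.8% of all). In bulk RNA, a change in the share of cells that express a gene and a change in RNA per cell cannot be told apart.

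With mifepristone against vehicle, both with NaCl, 35 of the 41 rose and again only Ifit3 among them fell. The background shares were 26.8% called higher and 31.9% called lower. The median was 0.80, against -0.03 for all genes tested, and 12 rose at least 2-fold (4.15% of all). Trim25, Parp14, Ifi27, Dtx3l and Samd9l were not called, at log2 fold changes between -0.15 and 0.14, and without mifepristone C Samd9l was called lower at -0.15 (adjusted p = 0.0113; 0.0049 in a fit to the libraries of these groups alone) and Trim25 higher at 0.14 (adjusted p = 0.00797). Both comparisons, which have no library in common, called the same 35 genes higher, against 18.6% of all genes tested that were called higher in both. Across the 41 genes their log2 fold changes had a Pearson r of 0.94 (0.88 without Ifi27l2a) and a Spearman rho of 0.85, as a description across genes, which are not independent replicates and were measured at like depth.

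**Figure D1:**
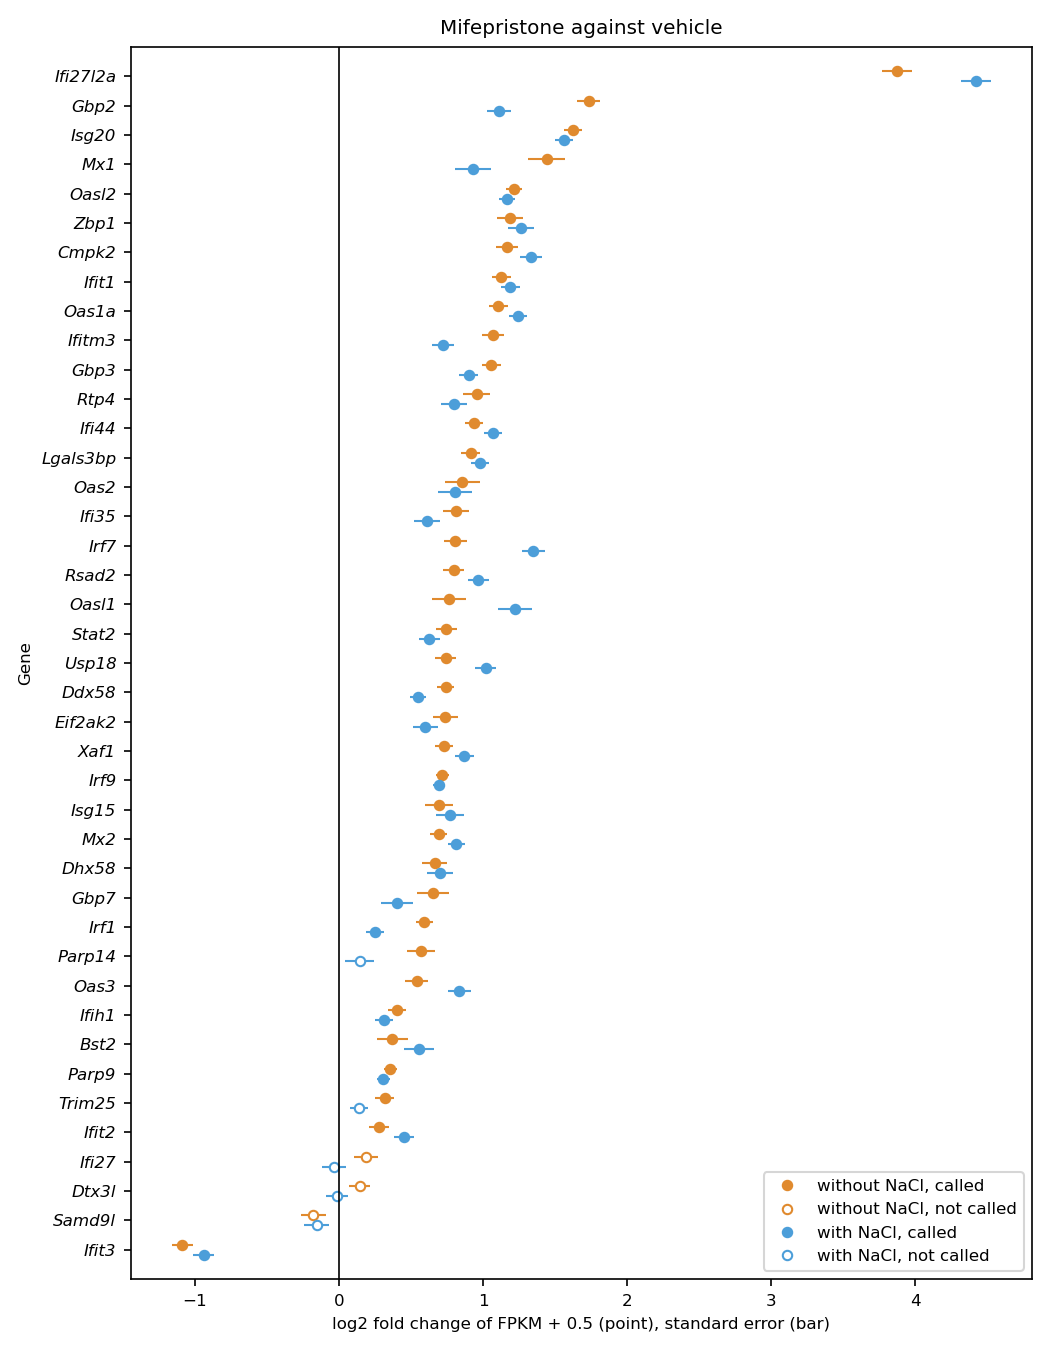
Log2 fold change with mifepristone against vehicle for the 41 genes (points, with standard errors as bars), without NaCl in orange and with NaCl in blue, on the log2(FPKM + 0.5) scale. Filled points passed the test. Of the 41 genes, 37 (without NaCl) and 35 (with NaCl) lie right of 0 and passed, Ifi27l2a lies farthest right at 3.87 and 4.42, and Ifit3 is alone among the called genes to the left.

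Levels differed widely among the 41 genes already with vehicle. Per length, Ifit3 was the highest at a mean of 326 ± 6.91 FPKM (SD, n = 3), followed by Bst2 at 125 ± 10.5, Ifit2 at 76.4 ± 1.28 and Ifi27 at 69.8 ± 6.03. Mx1, Zbp1 and Oasl1 were the lowest at 2.32 ± 0.536, 2.20 ± 0.264 and 0.869 ± 0.201 FPKM, and Mx1 and Zbp1 overlapped. With mifepristone and NaCl, Ifit3 and Bst2 still had the highest means (219 and 209 FPKM), and Ifi27l2a had moved from rank 33 to rank 3. Vehicle was the lowest group mean for 32 of the 41 genes, and mifepristone with NaCl the highest for 28. These orders were counted in the 41 genes only, so no share over all genes stands beside them. The group mean was highest with mifepristone alone for 10 genes and with vehicle and NaCl for Ifit3, Ifi27 and Samd9l.

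**Figure D2:**
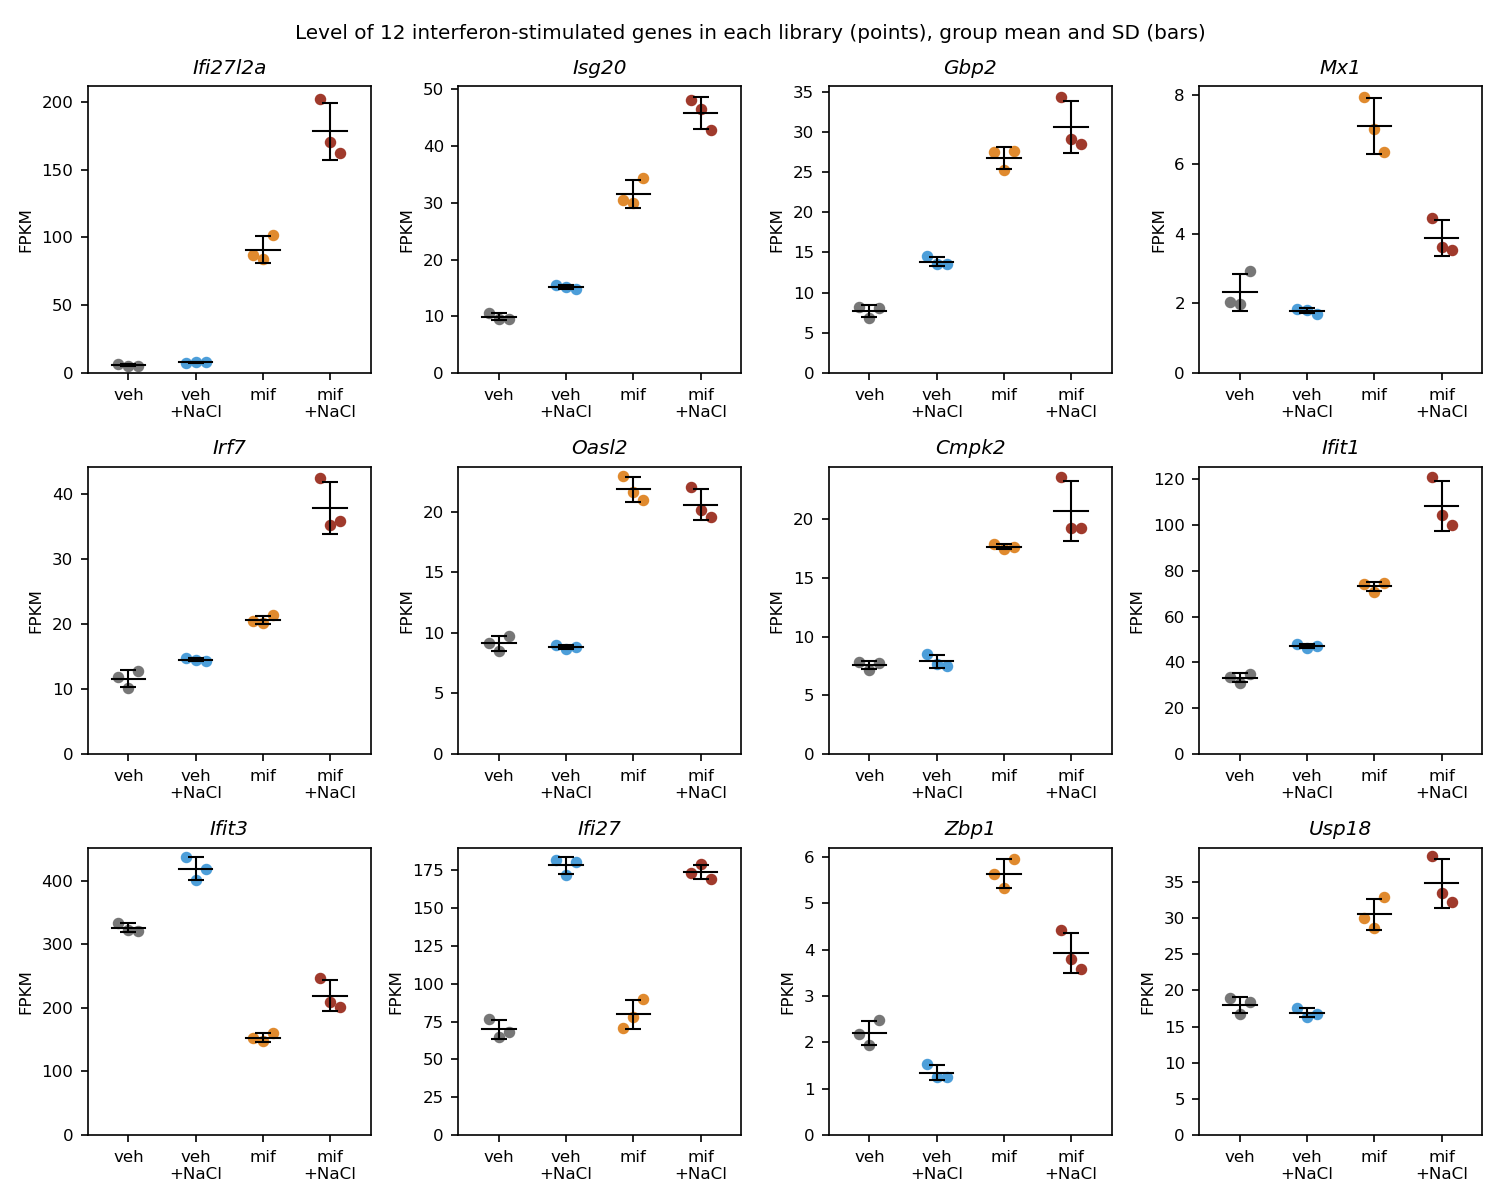
FPKM of 12 of the genes in each library (points A, B and C from left to right), with the group mean and SD as bars, for vehicle (veh) and mifepristone (mif) without and with NaCl. Ifi27l2a climbs from 5.29 to 6.53 FPKM with vehicle to 162 to 202 with mifepristone and NaCl, Ifit3 is lower in both mifepristone groups, and Ifi27 is higher in both NaCl groups.

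The 4 transcription factor genes all rose with mifepristone, both without and with NaCl. In what follows the values of a group are those of libraries A, B and C in that order. Irf7, the factor that amplifies type I interferon transcription, was at 11.9, 10.2 and 12.7 FPKM with vehicle, 14.7, 14.5 and 14.3 with vehicle and NaCl, 20.5, 20.1 and 21.3 with mifepristone, and 42.6, 35.2 and 35.8 with mifepristone and NaCl. The 4 groups did not overlap, and the mifepristone and NaCl libraries stood highest. Its log2 fold change with mifepristone was 0.81 ± 0.08 (SE) without NaCl and 1.35 ± 0.08 with NaCl (adjusted p = 6.47e-06 and 8.83e-08). Stat2 and Irf9, parts of the interferon-activated complex, rose by 0.75 and 0.72 on the log2 scale without NaCl and by 0.63 and 0.70 with NaCl. Irf1, a target of the gamma-activated site, rose by 0.59 without NaCl and by 0.25 with it.

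Among the 10 genes whose products act on RNA or its translation, 9 rose with mifepristone in both settings and Ifit3 fell in both. Isg20, an RNA exonuclease, was at 10.6, 9.57 and 9.53 FPKM with vehicle, 15.5, 15.2 and 14.9 with vehicle and NaCl, 30.5, 29.9 and 34.4 with mifepristone, and 48.2, 46.6 and 42.8 with mifepristone and NaCl. The groups did not overlap and each mifepristone library stood above every vehicle library, at 3.19 times the vehicle mean without NaCl and 3.02 times with it (log2 fold change 1.62 ± 0.06 and 1.56 ± 0.06, adjusted p = 2.65e-09 and 3.24e-09). Isg20 had the second largest ratio of mifepristone and NaCl to vehicle, 4.63, after Ifi27l2a.

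The Ifit genes encode proteins that bind viral RNA and block its translation. Ifit1 was at 33.8, 31.1 and 34.9 FPKM with vehicle, 48.2, 46.1 and 47.1 with vehicle and NaCl, 74.1, 70.8 and 74.5 with mifepristone, and 121, 104 and 100.1 with mifepristone and NaCl. No groups overlapped, and the log2 fold change with mifepristone was 1.13 ± 0.07 without NaCl and 1.19 ± 0.07 with it (adjusted p = 8.29e-08 and 5.02e-08). Its neighbour Ifit3 was at 334, 323 and 321 FPKM with vehicle, 437, 401 and 418 with vehicle and NaCl, 152, 148 and 160.4 with mifepristone, and 247, 209 and 201 with mifepristone and NaCl. All mifepristone libraries lay below all vehicle libraries, and within each, NaCl libraries were the higher. Ifit3 fell by 1.09 on the log2 scale without NaCl and by 0.94 with it (SE 0.07 each, adjusted p = 2.25e-07 and 7.36e-07). Ifit2, the third gene of the cluster, rose by only 0.28 and 0.45 with mifepristone. Ifit3b, a near-identical copy of Ifit3 named here after its values were seen, fell by 1.25 and 1.03 on the log2 scale, and the level of each copy alone is uncertain, since the counting of shared reads is not given in the sources used here.

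The Oas proteins make the second messenger that activates RNase L. Oas1a was at 28.7, 25.7 and 29.1 FPKM with vehicle, 37.2, 34.7 and 36.7 with vehicle and NaCl, 57.9, 59.2 and 64.4 with mifepristone, and 93.5, 83.1 and 83.1 with mifepristone and NaCl, rising in order through the 4 groups without overlap (log2 fold change with mifepristone 1.11 ± 0.06 and 1.24 ± 0.06, adjusted p = 7.53e-08 and 2.68e-08). Oasl2, an Oas-like gene, was at 9.12, 8.51 and 9.72 FPKM with vehicle, 9.03, 8.70 and 8.87 with vehicle and NaCl, 23, 21.6 and 21 with mifepristone, and 22, 20.1 and 19.6 with mifepristone and NaCl. Its mifepristone libraries stood above its vehicle libraries, while libraries with and without NaCl overlapped (with mifepristone 1.22 ± 0.06 and 1.17 ± 0.06, adjusted p = 1.11e-08 and 1.4e-08). Oasl1, which restrains translation of Irf7, was the lowest gene of the set, at 1.03, 0.642 and 0.938 FPKM with vehicle, 1.17, 1.25 and 1.23 with vehicle and NaCl, 1.69, 1.62 and 2.12 with mifepristone, and 3.65, 3.85 and 3.06 with mifepristone and NaCl. Its groups did not overlap, and its log2 fold change was 0.76 ± 0.12 without NaCl and 1.22 ± 0.12 with it (adjusted p = 0.000206 and 4.62e-06), from 75 to 436 reads a library. The FPKM + 0.5 scale understates a change at such levels, and voom on recovered reads gave 1.08 and 1.52. Oas2, Oas3 and Eif2ak2, the RNA-activated kinase that stops translation, rose by 0.54 to 0.86 on the log2 scale in both settings.

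The largest change of all belonged to Ifi27l2a, a small mitochondrial protein gene of the Ifi27 family, which was at 6.53, 5.40 and 5.29 FPKM with vehicle, 7.20, 8.07 and 8.14 with vehicle and NaCl, 87.1, 83.9 and 102 with mifepristone, and 202, 170.4 and 162 with mifepristone and NaCl. Every mifepristone library exceeded every vehicle library more than 10-fold, on 112 to 4281 reads a library. The mean was 15.9 times that of vehicle without NaCl and 22.8 times with it (log2 fold change 3.87 ± 0.10 and 4.42 ± 0.10, adjusted p = 1.79e-10 and 6.24e-11). The adjacent family member Ifi27, on chromosome 12 within 200 kb, was at 76.6, 64.9 and 67.9 FPKM with vehicle, 182, 172 and 181 with vehicle and NaCl, 70.8, 78.3 and 90.0 with mifepristone, and 173, 179 and 169 with mifepristone and NaCl. Its NaCl libraries stood far above the others, and mifepristone and vehicle libraries overlapped. Ifi27 was not called with mifepristone, at 0.19 ± 0.08 without NaCl and -0.04 ± 0.08 with it, where quantile normalization turned the sign (0.05). The change without NaCl was called higher in 5 alternatives, without vehicle A (0.25, adjusted p = 0.0263), without mifepristone A (0.27, adjusted p = 0.0145), without vehicle A and mifepristone C together, with median-ratio scaling and with quantile normalization, at an adjusted p of 0.014 to 0.0435. Ifi44, a gene of less defined role, was at 6.21, 5.82 and 6.57 FPKM with vehicle, 8.47, 7.64 and 8.12 with vehicle and NaCl, 12.7, 12.2 and 12 with mifepristone, and 19.1, 16.6 and 16.8 with mifepristone and NaCl. Its groups did not overlap (with mifepristone 0.94 ± 0.06 and 1.07 ± 0.06, adjusted p = 1.93e-07 and 6.16e-08), and Xaf1, which promotes cell death, rose by 0.73 and 0.87.

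The 4 sensors of foreign RNA or DNA all rose with mifepristone in both settings. Zbp1, a sensor of left-handed nucleic acid, was at 2.18, 1.94 and 2.47 FPKM with vehicle, 1.53, 1.25 and 1.25 with vehicle and NaCl, 5.62, 5.34 and 5.95 with mifepristone, and 4.42, 3.80 and 3.59 with mifepristone and NaCl. Mifepristone libraries stood above vehicle libraries, and in each pair the NaCl libraries were the lower (with mifepristone 1.19 ± 0.09 and 1.26 ± 0.09, adjusted p = 7.64e-07 and 4.39e-07). Ddx58 (RIG-I), Dhx58 (LGP2) and Ifih1 (MDA5), the cytosolic RNA helicases, rose by 0.74, 0.66 and 0.40 on the log2 scale without NaCl and by 0.55, 0.70 and 0.31 with it.

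Among 10 other antiviral effectors, 9 rose with mifepristone in both settings, and Samd9l was not called in either. Gbp2, a guanylate-binding protein, was at 8.24, 6.85 and 8.06 FPKM with vehicle, 14.5, 13.6 and 13.5 with vehicle and NaCl, 27.5, 25.2 and 27.6 with mifepristone, and 34.3, 29.1 and 28.5 with mifepristone and NaCl. The groups did not overlap, and vehicle stood lowest. Its log2 fold change with mifepristone was 1.73 ± 0.08 without NaCl and 1.11 ± 0.08 with it (adjusted p = 1.22e-08 and 4.52e-07). Gbp3 was at 7.21, 6.42 and 7.30 FPKM with vehicle, 11.4, 10.8 and 11 with vehicle and NaCl, 15.5, 14.1 and 15.6 with mifepristone, and 23.1, 20.6 and 19.6 with mifepristone and NaCl. It rose through the 4 groups without overlap, by 1.06 ± 0.07 and 0.90 ± 0.07 with mifepristone (adjusted p = 1.29e-07 and 4.65e-07), and Gbp7 of the same cluster on chromosome 3 rose by 0.65 and 0.40.

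Mx1, a GTPase that traps viral nucleocapsids, was at 2.05, 1.97 and 2.94 FPKM with vehicle, 1.84, 1.82 and 1.70 with vehicle and NaCl, 7.94, 7.02 and 6.36 with mifepristone, and 4.47, 3.63 and 3.54 with mifepristone and NaCl. Mifepristone libraries stood above vehicle libraries, and NaCl libraries of the mifepristone cells were lower than those without NaCl (with mifepristone 1.44 ± 0.13 and 0.93 ± 0.13, adjusted p = 2.12e-06 and 7.48e-05). Ifitm3, which blocks viral entry at endosomes, was at 62.1, 51.8 and 58.9 FPKM with vehicle, 88.7, 79.9 and 86.5 with vehicle and NaCl, 115, 119 and 129 with mifepristone, and 150.4, 139 and 133 with mifepristone and NaCl. No groups overlapped (with mifepristone 1.07 ± 0.08 and 0.72 ± 0.08, adjusted p = 3.71e-07 and 9.01e-06). Cmpk2, a mitochondrial nucleotide kinase, was at 7.84, 7.17 and 7.74 FPKM with vehicle, 8.52, 7.64 and 7.47 with vehicle and NaCl, 17.9, 17.4 and 17.6 with mifepristone, and 23.6, 19.3 and 19.2 with mifepristone and NaCl. Its mifepristone libraries stood above its vehicle libraries (log2 fold change 1.17 ± 0.08 and 1.34 ± 0.08, adjusted p = 1.78e-07 and 5.62e-08), and Rsad2 (viperin), its neighbour on chromosome 12, rose by 0.80 and 0.97. Mx2, annotated as a polymorphic pseudogene, rose by 0.69 and 0.81, and Bst2 (tetherin), which holds budding virus at the membrane, by 0.37 and 0.56. Without vehicle B the rise of Bst2 without NaCl missed the threshold (adjusted p = 0.0502).

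Of 9 genes of ubiquitin-like modification, ADP-ribosylation and regulation, 8 rose with mifepristone without NaCl and 6 with it. Usp18, the protease that removes Isg15 from proteins and dampens receptor signalling, was at 18.9, 16.8 and 18.3 FPKM with vehicle, 17.6, 16.3 and 16.8 with vehicle and NaCl, 30.0, 28.6 and 32.9 with mifepristone, and 38.6, 33.5 and 32.2 with mifepristone and NaCl. Its vehicle libraries with and without NaCl overlapped and all mifepristone libraries stood above them (log2 fold change 0.74 ± 0.07 and 1.02 ± 0.07, adjusted p = 5.56e-06 and 3.98e-07). Isg15, the ubiquitin-like modifier itself, rose by 0.70 and 0.77, and Lgals3bp, a secreted galectin partner, by 0.91 and 0.98. Rtp4 rose by 0.96 and 0.80, Ifi35 by 0.81 and 0.61, and Parp9 by 0.36 and 0.31. Parp14 and Trim25, the ubiquitin ligase that activates RIG-I, were called higher without NaCl (0.57 and 0.32) and not with it, and of these differences between settings that of Parp14 passed its own test and that of Trim25 did not (interaction -0.18). In a fit to the libraries of the 2 groups alone, both were called higher with NaCl too (adjusted p = 0.0258 for Parp14 and 0.0113 for Trim25). Dtx3l, the partner of Parp9, was not called in either comparison. Without mifepristone C it was called higher without NaCl at a log2 fold change of 0.25 (adjusted p = 0.000797). Parp9 and Dtx3l overlap on opposite strands, and whether the counting used strand is not given in the sources used here.

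NaCl without mifepristone raised fewer of the genes. In vehicle cells 23 of the 41 rose and 1, Zbp1, fell, against 25.2% and 31.5% of all genes tested, and the median log2 fold change was 0.27 (-0.02 for all). Ifi27 alone rose at least 2-fold, as did 2.73% of all genes (1.35 ± 0.08, adjusted p = 1.82e-07), to 2.55 times its vehicle mean. Next came the sensor gene Ddx58 (0.92 ± 0.06), Lgals3bp (0.89 ± 0.06) and Gbp2 (0.81 ± 0.08). Zbp1 fell by 0.55 on the log2 scale (SE 0.09, adjusted p = 0.000439). The 17 other genes lay between -0.29 and 0.19. The calls of Oasl1 and Samd9l were lost without 4 and 10 of the 12 libraries taken singly, and their adjusted p reached 0.123 and 0.119 over all alternatives. That of Ifi27l2a was lost with voom on recovered reads (adjusted p = 0.0687). The number that fell became 3 without vehicle B and 2 without mifepristone A, mifepristone C, or mifepristone and NaCl A.

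In mifepristone cells NaCl raised 25 of the 41 and lowered 4, against 24.5% and 34.2% of all genes, with a median of 0.25 (-0.06 for all). Ifi27 was again the 1 gene that rose at least 2-fold, as did 3.33% of all (1.13 ± 0.08, adjusted p = 5.87e-07), followed by Ifi27l2a (0.96 ± 0.10), Lgals3bp (0.96 ± 0.06) and Irf7 (0.86 ± 0.08). Mx1 fell by 0.80 on the log2 scale, Zbp1 by 0.47, Ifih1 by 0.24 and Irf1 by 0.20. Of the rises, those of Usp18, Bst2, Rtp4, Parp9, Ifitm3, Cmpk2 and Samd9l, between 0.12 and 0.37, were lost without at least 1 single library, and over all alternatives their adjusted p reached 0.198. The fall of Irf1 was lost in a fit to the libraries of these groups alone (adjusted p = 0.0521). Without mifepristone C the genes that fell numbered 8.

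Among these 2 NaCl comparisons, which again have no library in common, 21 genes were higher in both (15.5% of all genes tested) and Zbp1 was lower in both (21.4% of all). The 21 include Stat2, Irf7, Irf9, Isg20, Ifit1, Ifi27l2a, Ddx58, Oas1a, Mx2, Gbp3, Ifitm3 and Lgals3bp. The mifepristone and NaCl comparisons share libraries, so their values are only set side by side. Zbp1 changed by 1.19 and 1.26 with mifepristone and by -0.55 and -0.47 with NaCl. Ifit3 changed by -1.09 and -0.94 with mifepristone and by 0.36 and 0.51 with NaCl.

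**Figure D3:**
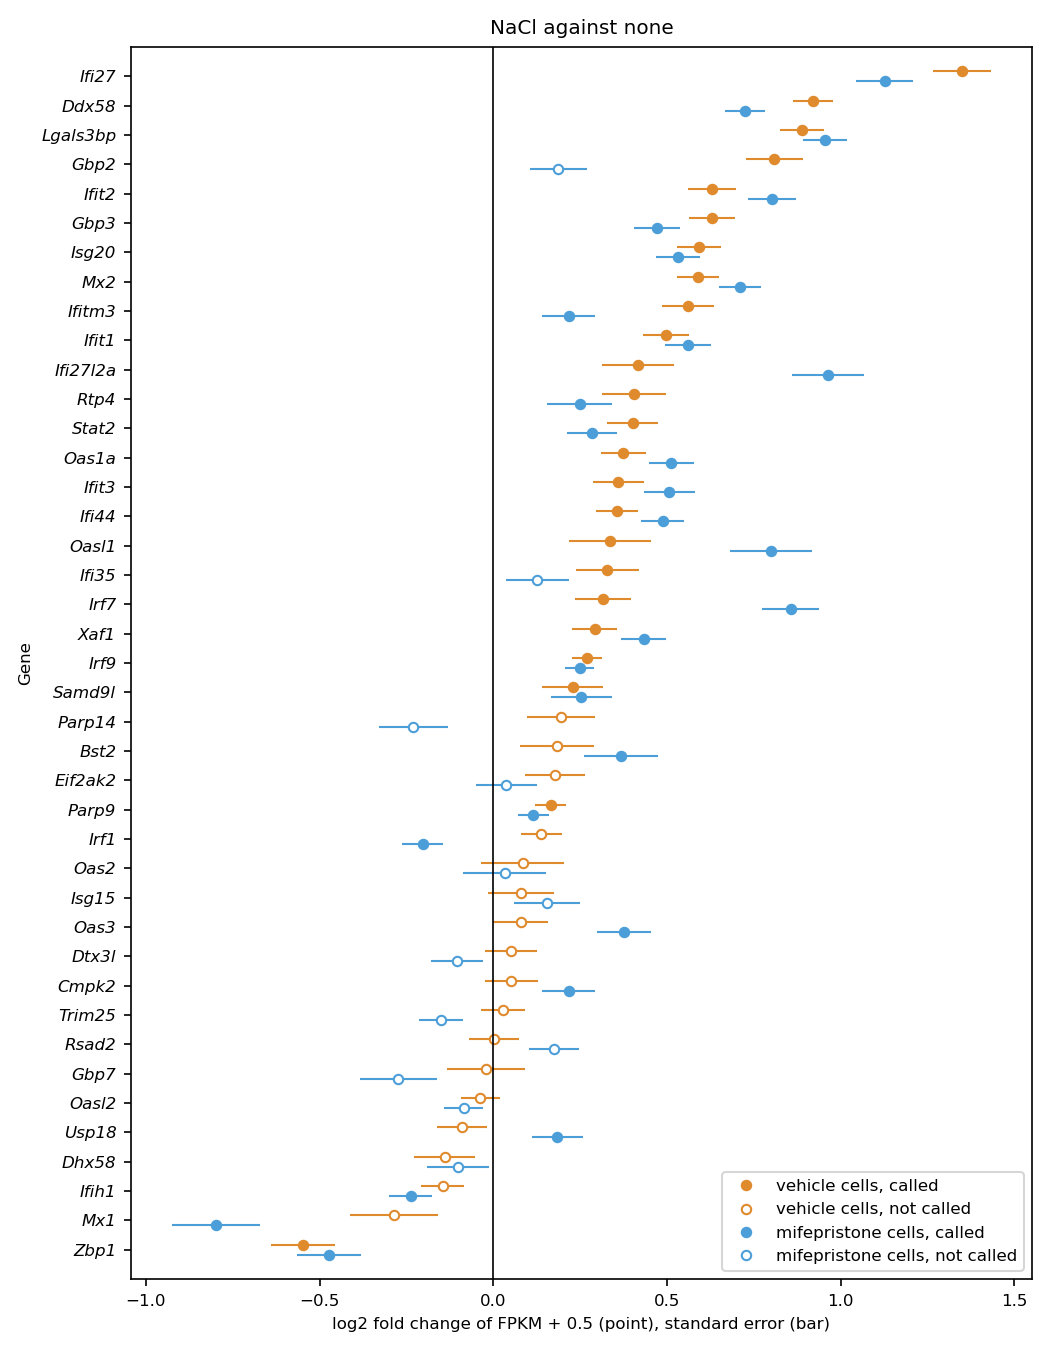
Log2 fold change with NaCl against none for the 41 genes (points, with standard errors as bars), in vehicle cells in orange and in mifepristone cells in blue, on the log2(FPKM + 0.5) scale. Filled points passed the test, and genes are ordered by the change in vehicle cells. Ifi27 is the only gene past 1 in either setting, Zbp1 is lower in both, and Mx1 is farthest left at -0.80 in mifepristone cells.

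The difference between the mifepristone effects with and without NaCl was tested as an interaction. It was called positive for 2 of the 41 genes and negative for 4, against 13.6% and 17.5% of all genes tested, so most of the set did not pass this test. Irf7 (0.54 ± 0.11, adjusted p = 0.00468) and Ifi27l2a (0.55 ± 0.15, adjusted p = 0.0164) rose more with mifepristone when NaCl was present. Gbp2 (-0.62 ± 0.11, adjusted p = 0.00215), Parp14 (-0.42 ± 0.14, adjusted p = 0.0392), Ifitm3 (-0.34 ± 0.11, adjusted p = 0.032) and Irf1 (-0.34 ± 0.08, adjusted p = 0.0102) rose less. The calls of Irf7 and Gbp2 were kept under all alternatives at the 0.05 threshold, and so was that of Irf1. That of Parp14 was lost without 9 and that of Ifitm3 without 6 of the 12 libraries taken singly, and their adjusted p reached 0.0943 and 0.0738 over all alternatives. That of Ifi27l2a was lost with voom (adjusted p = 0.0904). Mx1, at -0.51, was not called. It was called negative with a pseudocount of 1, with quantile normalization, and without vehicle C, mifepristone C, or mifepristone and NaCl A (adjusted p = 0.00569 to 0.0468). Without mifepristone C 10 genes were called negative and 5 positive. The positive count was also 5 without vehicle B and 4 without mifepristone and NaCl C. The negative count was 2 without vehicle B, either of vehicle and NaCl A and C, mifepristone B, or either of mifepristone and NaCl B and C.

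The genes of the pathway above the set moved in step only in part. Of 21 interferon ligand genes, Ifnb1 (interferon beta) alone passed the filter. It reached 1 FPKM only in the mifepristone and NaCl libraries and in mifepristone C. Ifnb1 thus entered the test through the groups where it was high, and its p-values serve as a description only. It was counted with 12, 4 and 15 reads with vehicle, 20, 16 and 14 with vehicle and NaCl, 21, 33 and 45 with mifepristone, and 112, 112 and 114 with mifepristone and NaCl. In FPKM it was at 0.369, 0.119 and 0.411 FPKM with vehicle, 0.597, 0.474 and 0.395 with vehicle and NaCl, 0.616, 0.931 and 1.21 with mifepristone, and 3.26, 3.55 and 3.04 with mifepristone and NaCl. The mifepristone and NaCl libraries stood highest, and vehicle with and without NaCl overlapped. Ifnb1 rose with mifepristone by 0.83 ± 0.17 on the log2 scale without NaCl (adjusted p = 0.00163) and by 1.94 ± 0.17 with NaCl (adjusted p = 2.27e-06), and with NaCl by 1.43 ± 0.17 in mifepristone cells (adjusted p = 3e-05). In vehicle cells NaCl was not called (0.32 ± 0.17). The interaction was 1.11 ± 0.24 (adjusted p = 0.00553), and it missed the threshold with a pseudocount of 0.1 and with voom on recovered reads (adjusted p = 0.072 and 0.135). At such low levels a scale of FPKM + 0.5 understates the change. The other 20 ligand genes stayed at or below 0.735 FPKM and 50 reads in every library, and 8 of them had no read in any.

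All 6 receptor genes were tested. NaCl lowered all 6 in vehicle cells and all 6 in mifepristone cells, against 31.5% and 34.2% of all genes tested. The shares of all genes called higher and lower with mifepristone were 28.3% and 31.5% without NaCl, and 26.8% and 31.9% with it. With mifepristone, Ifnar2, a chain of the type I receptor, rose by 0.59 without NaCl and 0.37 with it, as the only one of the 6, while 3 and 4 fell, among them the type II receptor genes Ifngr1 (-0.58 and -0.46) and Ifngr2 (-0.51 and -0.50). The others that fell were the type III receptor gene Ifnlr1 in both settings (-0.20 and -0.44) and, with NaCl, Il10rb (-0.30), while Ifnar1 was not called. Of 3 receptor kinase genes, Jak1 and Jak2 rose without NaCl and Jak2 alone with it, and Jak2 rose by 1.25 and 1.55. Jak2 was at 12, 12.2 and 12 FPKM with vehicle, 9.74, 9.41 and 9.36 with vehicle and NaCl, 30.2, 29.6 and 27.9 with mifepristone, and 27.6, 29.3 and 29.1 with mifepristone and NaCl. Its libraries with mifepristone stood above all vehicle libraries, and within the vehicle cells NaCl libraries were the lower. Jak1 rose by 0.24 without NaCl, and Tyk2 was not called in either comparison (0.20 and 0.06).

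**Figure D4:**
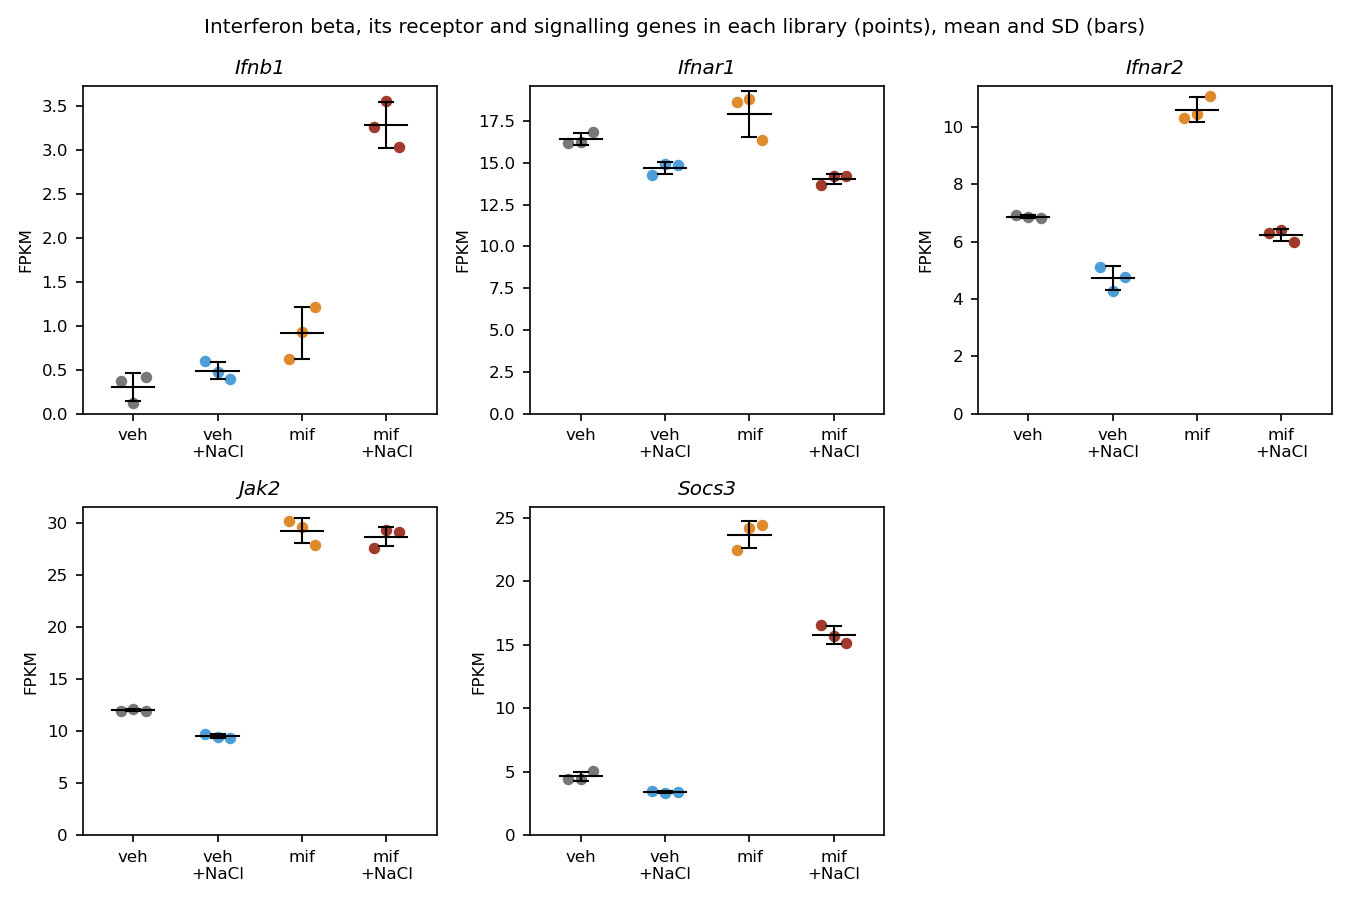
FPKM of the interferon beta gene (Ifnb1), both chains of its receptor (Ifnar1, Ifnar2), the kinase Jak2 and the feedback inhibitor Socs3 in each library (points A, B and C from left to right), with the group mean and SD as bars, for vehicle (veh) and mifepristone (mif) without and with NaCl. Ifnb1 reaches 3.04 to 3.55 FPKM with mifepristone and NaCl and no more than 1.21 elsewhere, and Jak2 and Socs3 are higher in both mifepristone groups.

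Of 12 tested sensors, adaptors and kinases upstream of interferon genes, 9 rose with mifepristone without NaCl and none fell, and 6 rose and 1 fell with NaCl. Over all genes tested, the shares called higher and lower were 28.3% and 31.5% without NaCl, and 26.8% and 31.9% with it. Tlr3, the receptor of double-stranded RNA in endosomes, rose by 0.74 without NaCl, and Mb21d1 (cGAS), the sensor of cytosolic DNA, by 0.43 without and 0.77 with NaCl. Irf5 rose by 0.95 with NaCl, where Tmem173 (STING), the adaptor downstream of cGAS, was the 1 that fell, by 0.31. Irf5 reached 1 FPKM only with mifepristone and NaCl, so it entered the test through the group where it was high. Of 8 tested negative regulators, 5 rose and the phosphatase gene Ptpn6 fell (-0.14) without NaCl, and 7 rose and Ptpn11 fell (-0.25) with it. Socs3, an inhibitor of Jak kinases, rose most, from 4.37, 4.44 and 5.02 FPKM with vehicle, 3.44, 3.33 and 3.38 with vehicle and NaCl, 22.4, 24.1 and 24.4 with mifepristone, and 16.5, 15.7 and 15.1 with mifepristone and NaCl, by 2.24 ± 0.05 without and 2.07 ± 0.05 with NaCl (adjusted p = 8.86e-11 and 1.21e-10), and Samhd1, a nucleotide hydrolase, rose by 0.86 and 0.79. The negative regulator Trex1 was listed at 0 in every library.

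A further list of 59 interferon-stimulated genes had 52 entries tested, where Gbp6 is counted once for each of its separate gene identifiers. With mifepristone 43 rose and 3 fell without NaCl, against 28.3% and 31.5% of all genes (median 0.65 against -0.01). In the setting with NaCl, 39 rose and 3 fell, against 26.8% and 31.9% of all (median 0.59 against -0.03). The lower ones were Ifit3b, Parp11 and Ifi30 without NaCl, and Ifit3b, Parp11 and Znfx1 with it. Slfn2, a schlafen gene, rose by 3.14 ± 0.10 without NaCl, and the guanylate-binding protein genes Gbp8 and Gbp10 by 2.31 ± 0.06 and 1.90 ± 0.07. With vehicle and with vehicle and NaCl, Slfn2 had means of only 0.361 and 0.264 FPKM, and Gbp10 of 0.823 and 0.679. Slfn2 and Gbp10 thus passed the filter through the mifepristone groups, where they were high, as did Gbp6 and Ifi203. Such genes add to the counts that rose. Ifit1bl1, an Ifit1-like gene, rose by 2.08 ± 0.08. With NaCl, Gbp8, Ifit1bl1, Oas1g and Oas1c rose by 1.67, 1.85, 1.35 and 1.19. With NaCl, 17 of the 52 were higher and 11 lower in vehicle cells (25.2% and 31.5% of all genes, median 0.05), and 15 and 16 in mifepristone cells (24.5% and 34.2% of all, median 0.01). In mifepristone cells Slfn2 fell with NaCl by 1.91 and Gbp8 by 0.98, while Ifit1bl1 and Oas1c rose by 1.60 and 1.36. Several of these genes have near-identical copies, so their separate levels are uncertain. Ifi44l was listed at 0 in every library.

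Leukocyte markers were measured beside these results, since leukocytes express many of these genes. Of 10 markers, Cd68, a lysosomal protein, alone passed the filter, and it rose with mifepristone by 0.33 and 0.81 on the log2 scale and with NaCl in mifepristone cells by 0.37. The summed level of the list was 3.13 to 3.58 FPKM with vehicle, 3.16 to 3.69 with vehicle and NaCl, 4.01 to 4.39 with mifepristone, and 5.67 to 6.17 with mifepristone and NaCl. The remaining markers reached no more than 0.310 FPKM in any library. Ptprc (CD45), which defines leukocytes, had means of 0.0656, 0.296, 0.0119 and 0.0450 FPKM in the same order of groups. The summed level of 8 fibroblast and endothelial markers was at most 0.770 FPKM.

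In the authors' deposited table of the NaCl comparisons, 9 of the 41 genes carry the mark of a nearby ChIP peak (22.0%), against 3987 of the 14044 genes tested (28.4%). They are Irf7, Ifit2, Ifit3, Ifi44, Oasl1, Usp18, Rtp4, Parp14 and Samd9l. By the authors' own NaCl tests, Mx1 was lower in vehicle cells too (-0.37, adjusted p = 0.0341). In mifepristone cells Gbp7 (-0.30, adjusted p = 0.0276) and Parp14 (-0.24, adjusted p = 0.0407) were also lower by those tests. Parp9, called higher there by limma, missed the 0.05 threshold (adjusted p = 0.0523). The authors' deposited table of the mutant comparison gives Isg20, Ifi27l2a, Oasl2, Mx1 and Gbp2 an adjusted p under 0.05, 5 of 41 (12.2%) against 4.92% of the genes tested. No gene in that mutant comparison had an adjusted p below 1 at an absolute log2 fold change under 1.07, so those p-values may refer to a minimum fold. No gene of the 41 passed the authors' interaction test. There, the smallest absolute log2 interaction of any gene with an adjusted p below 1 was 1.21.

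Of the 41 genes, 20 lie within 200 kb of another of the set. Neighbours moved alike in the Oas1a, Oas2 and Oas3 cluster and the Oasl1 and Oasl2 pair on chromosome 5, in Gbp2, Gbp3 and Gbp7 on chromosome 3, in Mx1 and Mx2 on chromosome 16 and in Rsad2 and Cmpk2 on chromosome 12, where every gene rose with mifepristone in both settings. So did 35 of all 41 genes, so a shared rise is not particular to neighbours. Neighbours differed in the Ifit cluster on chromosome 19, in the pair Ifi27 and Ifi27l2a, and in Parp9, Parp14 and Dtx3l on chromosome 16. Mx1 and Mx2 differed with NaCl in mifepristone cells, by -0.80 and 0.71 on the log2 scale. Exons of 14 of the genes overlap those of another annotated gene, among them Irf7 with Phrf1, Irf9 with Rnf31 and Irf1 with Gm17334, and reads in the overlaps may belong to either.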

How the data were processed

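RNA of the 12 libraries was sequenced after poly(A) selection, per the labels' protocols. The submitters' processing notes name Trimmomatic 0.32, STAR 2.4.2a, SAMtools 1.0 and DESeq2 1.12.3 and the build GRCm38 (mm10), without saying which tool did what. For the counting program, the annotation and the use of strand, the answer was not given in the sources used here. The authors deposited a table of FPKM per library with 48034 genes. They also deposited comparison tables which, per the file headers, hold log2 fold changes, adjusted p-values, a mean signal per gene (normalized counts) and a mark of a nearby ChIP peak. The 6 control columns match the sample titles. For the 6 mutant columns, the NaCl part, the letter and knowledge of the study gave the match to mifepristone samples, and 0 columns were left without a sample.

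The deposited FPKM and mean signal gave back whole reads for 100% of values within a tolerance of 0.05. limma 3.58.1 (in R 4.3.3; trend and robust options on) was fitted to log2(FPKM + 0.5) with 4 group means over 12 libraries, and p-values were adjusted by Benjamini-Hochberg over the 14044 genes that reached 1 FPKM in 3 or more libraries. Fold changes are on this scale unless a ratio of mean FPKM is given. No label says that a group's 3 libraries are separate cultures. The p-values thus reflect only how these libraries vary, which may be technical variation. The 41 genes and all lists were chosen with earlier results of these data known. Values per library are given for genes of the 41 called with an absolute log2 fold change of at least 1 and groups without overlap. Up to 4 genes per list and comparison are named, by smallest adjusted p. Other list genes in the text, such as the few that fell, were chosen after their values were seen. A gene of the pathway lists is not reported here. The fit was tested on simulated data. Alternatives were other pseudocounts, filters, scalings, thresholds and fits, voom on the recovered reads, a replicate block, and each library left out. A fit without both vehicle A and mifepristone C was chosen after seeing the data. Promoters are from RefSeq, and gene positions from GENCODE M21.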

Additional observations from a re-analysis of the deposited data

Results flagged for a closer look

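The difference between the mifepristone effects with and without NaCl passed its interaction test for 6 of the 41 genes, 2 positive and 4 negative, against 13.6% and 17.5% of all genes tested, so fewer of the set passed than of all genes. The log2 difference was 0.55 for Ifi27l2a (adjusted p = 0.0164) and 0.54 for Irf7 (adjusted p = 0.00468), both larger with NaCl. It was -0.34 for Irf1 (adjusted p = 0.0102), -0.34 for Ifitm3 (adjusted p = 0.032), -0.42 for Parp14 (adjusted p = 0.0392) and -0.62 for Gbp2 (adjusted p = 0.00215), all smaller with NaCl. In Irf1, NaCl lowered the level in mifepristone cells (-0.20), while in vehicle cells its change was not called (0.14). That change was called higher in 6 alternatives, without mifepristone C, without mifepristone and NaCl C, without vehicle A and mifepristone C together, in a fit to the 2 groups alone, with median-ratio scaling and with quantile normalization (adjusted p = 0.0189 to 0.0478). Gbp2 rose with NaCl in vehicle cells (0.81), and its change in mifepristone cells was not called (0.19). It was called higher in 6 alternatives, with the replicate block (adjusted p = 0.0243), without vehicle B, without mifepristone and NaCl C, with voom on recovered reads, with median-ratio scaling and with quantile normalization (adjusted p up to 0.0468). Across the alternatives, 22 for each gene, adjusted p ran from 0.00162 to 0.0139 for Irf7, from 0.000824 to 0.00746 for Gbp2, from 0.00223 to 0.0904 for Ifi27l2a, from 0.00622 to 0.0282 for Irf1, from 0.0083 to 0.0738 for Ifitm3 and from 0.00195 to 0.0943 for Parp14.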

How the results depend on the processing

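Leaving out each library in turn gave 36 to 38 of the 41 genes higher and 1 to 2 lower with mifepristone without NaCl, and 35 to 36 and 1 to 2 with NaCl. It gave 21 to 26 and 1 to 3 with NaCl in vehicle cells, 18 to 27 and 4 to 8 in mifepristone cells, and 2 to 5 positive and 2 to 10 negative for the interaction. With only the libraries of the 2 groups compared, 2 genes fell with mifepristone in NaCl and 2 with NaCl in vehicle cells. With a mean FPKM of at least 5, 0 fell with NaCl in vehicle cells and 1 in mifepristone cells, since fewer genes were tested. Without vehicle A and mifepristone C together, 2 genes fell with mifepristone in NaCl, 2 with NaCl in vehicle cells and 8 with NaCl in mifepristone cells, and the interaction was positive for 4 and negative for 9. The positive count was 4 with median-ratio scaling, 5 with quantile normalization, 1 with voom on recovered reads and 1 at an adjusted p under 0.01. The negative count was 2 with no filter on low values and 1 at an adjusted p under 0.01. The cause of these moves was not tested. The sign turned in uncalled values with NaCl only, for Ifi27 with quantile normalization (0.051) and for Dtx3l with median-ratio scaling (0.0162) and quantile normalization (0.0064). Of the called results of the 41 genes, 37 of 38 with mifepristone without NaCl and 36 of 36 with NaCl were kept under all alternatives at the 0.05 threshold, as were 21 of 24 and 21 of 29 with NaCl in vehicle and mifepristone cells and 3 of 6 interactions. Same-letter libraries of different groups had correlations of deviations from -0.5 to 0.288 over 18 pairs, of which 6 exceeded 0.1. Those of different letters ran from -0.444 to 0.609 over 36 pairs, of which 14 exceeded 0.1. Deviations from a group mean cancel within the group and also followed transcript length, so these values cannot decide whether the letters pair libraries. With a replicate block, the higher and lower counts were 37 and 1, 35 and 1, 21 and 1, and 26 and 4 in the 4 comparisons in the order above, and 2 and 3 for the interaction. Depth limits Ifnb1, which rests on 4 to 15 reads a library with vehicle.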
